A study of Mus musculus with 3 samples.

Results

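Aqp1, Aplnr, Apln, C1qtnf9, Btnl9, Timp4, Ly6c1, Rflnb, Cd200 and Dok4 are 10 genes of the endothelium of brown adipose tissue (BAT), out of the 25154 genes listed in the 3 deposited tables. They were chosen from these same tables as leading genes of an endothelial group of nuclei, so their high level in endothelial cells (ECs) is a description and not a finding. All 10 were listed in each of the 3 tables. Their working name calls them capillary-enriched. The group the genes were picked from may be rich in capillary-like nuclei, the largest named class of ECs here. Their levels over other vessel types are therefore descriptions as well. They are no check of the name. With a minimum of 500 detected genes, at most 10% mitochondrial UMIs or each library clustered alone, no class was named capillary-like and these levels could not be given. Aqp1, Aplnr, C1qtnf9, Timp4 and Dok4 were higher in capillary-like than in arterial-like nuclei of all 3 libraries, beyond counting error, as were 2.35% of all genes compared. Only Timp4 of these was also higher than in venous-like nuclei of all 3 libraries. Btnl9 was higher than in venous-like nuclei of all 3 libraries but not than in arterial-like nuclei of the untreated and sham-operated ones. Ly6c1 and Rflnb were found in all vessel types. In the denervated library both were about 2-fold higher in capillary- than in venous-like nuclei, from 15 and 11 venous-like UMIs. Cd200 stood above both other vessel types in 2 libraries, and Apln had few UMIs in capillary-like nuclei.

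Nuclei came from interscapular BAT of adult wild-type C57Bl6 mice, and each of the 3 libraries stood for 1 condition. The untreated library is from BAT of several pooled animals. The sham-operated library is known from its label only. The denervated library is from pooled BAT lobes, taken at day 3 after the left intercostal nerves had been cut, and a legend of the study also names tamoxifen for these mice. The study used male mice only. Nuclei were released from the cells that floated after digestion of the tissue, a layer of brown adipocytes (BAs) and the pieces of vessel stuck to them, so ECs that did not float were not sampled. With 1 library per condition there was no replicate, no test was made, and a difference between libraries cannot be told apart from a difference between conditions.

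The tables held 13707, 15368 and 15822 barcodes in the untreated, sham-operated and denervated library, in this order here and below, with 14971579, 14725864 and 9420030 unique molecular identifiers (UMIs, each standing for 1 captured RNA molecule). After the filters 10390, 11731 and 9622 nuclei remained, with a median of 973, 742 and 685.5 UMIs. Between 251 and 278 barcodes were shared by any 2 libraries, and none of the shared kept barcodes had identical counts. EC-like nuclei numbered 4832, 5451 and 2602, and those without leading genes of another cell type, which are described below, 4761, 5385 and 2205. Levels are given as CPM, the UMIs of a gene per 1000000 UMIs summed over a class of nuclei. Brackets hold exact 95% intervals, which cover counting error only and not the spread between animals. After a median over the genes, brackets hold the medians of the genes' own interval ends and are no exact interval of the median.

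Capillaries of BAT deliver fatty acids, glucose and oxygen to BAs and carry heat away, and their ECs differ in gene expression from those of arteries and veins. The 10 genes have varied roles. Aqp1 encodes a water channel of the cell membrane. Apln encodes the peptide apelin, which sprouting endothelial tip cells are known to make, and Aplnr its G protein-coupled receptor. C1qtnf9 encodes a secreted relative of adiponectin, and Timp4 a secreted inhibitor of matrix metalloproteinases. Cd200 encodes a surface glycoprotein that quiets myeloid cells through its receptor, Ly6c1 a small protein held to the surface by a lipid anchor, and Btnl9 a butyrophilin-like membrane protein. Rflnb encodes refilin B, which binds filamins of the actin skeleton, and Dok4 an adaptor protein that docks on activated tyrosine kinase receptors.

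On GRCm38 (GENCODE vM21 models), Aqp1 lies at chr6:55336432-55348555 and C1qtnf9 at chr14:60768134-60780869, both on the plus strand, as is Aplnr at chr2:85136225-85139923. The other 7 lie on the minus strand: Apln at chrX:48025146-48034853, Btnl9 at chr11:49165585-49187159, Timp4 at chr6:115241892-115252205, Ly6c1 at chr15:75044018-75048830, Rflnb at chr11:76019194-76027782, Cd200 at chr16:45382135-45409053 and Dok4 at chr8:94863828-94876330. Exons of Cd200 cover 12.3% of its span and Aplnr is all exon, so that nuclear RNA, which holds introns, is sampled unequally over the genes, and levels are not compared between genes. The promoters of 4 genes with different patterns over the vessel types are shown, those of Aqp1 (high in capillary- and venous-like nuclei), Btnl9 (high in capillary- and arterial-like nuclei), Timp4 (highest in capillary-like nuclei) and Apln (highest in a small class with proliferation genes). Each line gives the 250 bases before the RefSeq start of transcription on GRCm38.p6, 5′ to 3′ on the strand of the gene, and capitals mark GGAAG or its reverse complement CTTCC, the core letters that ETS factors bind. The Aqp1 stretch is chr6:55336049-55336298 on the plus strand, Btnl9 is chr11:49187090-49187339 on the minus strand, Timp4 is chr6:115252206-115252455 on the minus strand, and Apln is chrX:48034854-48035103 on the minus strand.
Aqp1: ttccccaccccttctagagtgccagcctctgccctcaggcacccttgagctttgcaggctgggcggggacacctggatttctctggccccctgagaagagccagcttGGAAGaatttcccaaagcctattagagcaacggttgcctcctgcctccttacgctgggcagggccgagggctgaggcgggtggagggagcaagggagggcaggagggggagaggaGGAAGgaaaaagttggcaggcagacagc
Btnl9: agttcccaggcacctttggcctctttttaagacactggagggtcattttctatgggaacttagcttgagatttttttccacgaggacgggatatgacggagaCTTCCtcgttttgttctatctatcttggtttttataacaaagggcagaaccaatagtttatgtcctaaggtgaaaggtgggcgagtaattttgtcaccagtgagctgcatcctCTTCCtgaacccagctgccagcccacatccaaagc
Timp4: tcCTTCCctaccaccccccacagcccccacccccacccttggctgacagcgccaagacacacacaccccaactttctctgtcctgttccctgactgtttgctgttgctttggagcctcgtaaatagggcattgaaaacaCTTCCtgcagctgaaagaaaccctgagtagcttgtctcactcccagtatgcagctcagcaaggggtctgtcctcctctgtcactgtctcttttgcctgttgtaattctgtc
Apln: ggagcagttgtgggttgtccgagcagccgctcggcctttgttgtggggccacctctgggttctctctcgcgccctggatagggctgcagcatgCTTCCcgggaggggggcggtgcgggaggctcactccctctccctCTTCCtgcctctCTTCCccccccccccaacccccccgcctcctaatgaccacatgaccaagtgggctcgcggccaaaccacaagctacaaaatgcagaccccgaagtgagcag
Aqp1, Btnl9 and Timp4 each hold 2 such matches and Apln holds 3. A promoter was found for 8 of the 10 genes, all but Aplnr and Dok4, and 7 of these 8 hold at least 1 match on either strand. The exception is Cd200. The same letters occur in 64.1% of all 32817 mouse promoters of this length, so a match is common. Of the 2 start sites of Ly6c1 only that nearest the start of its gene model was counted. The KLF letters CACCC or their reverse complement occur in 4 of the 8, or in 5 with the second Ly6c1 site, against 52.0% of all promoters, the hypoxia letters ACGTG in 0 of the 8, against 16.6%, and the SOX letters ACAAT in 0 of the 8, against 27.7%.

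Counting could blur 4 of the genes. Timp4 lies within Syn2 and Gm17482 on the other strand, Dok4 overlaps Polr2c on the other strand over 9708 bases, C1qtnf9 overlaps the antisense gene Mipepos over 4541 bases, and whether the counting used strand is not given in the sources used here. Of the 50-base stretches of the Ly6c1 transcript, 32.8% also occur in Ly6c2 or other Ly6 genes, so its reads may be shared with them. Ly6c2 itself had 14.1, 22.3 and 16.4 CPM in EC-like nuclei.

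EC-like nuclei were sub-clustered without the 10 genes, and classes were named from marker genes of vessel types. Capillary-like nuclei numbered 2171, 1506 and 589, with a median of 790.0, 507 and 448 UMIs. Arterial-like nuclei numbered 294, 257 and 82 and venous-like nuclei 72, 137 and 70. Of the 9 capillary markers, 5 were at least 2-fold higher in capillary-like than in arterial- and venous-like nuclei together over the 3 libraries. Gpihbp1, which holds lipoprotein lipase on the capillary wall, had a log2 ratio of 1.46 (1.25 to 1.67), Car4, a membrane carbonic anhydrase, 1.65 (1.39 to 1.91), and Kdr, the main VEGF receptor, 1.28 (1.17 to 1.4). Cd36, the fatty acid transporter, had 0.68 (0.61 to 0.74), and Sgk1 had 0.05 (-0.23 to 0.34), an interval that spans 0. No cluster was named capillary-like under the 3 alternatives given above, and statements on capillary-like nuclei rest on the other settings. The cluster had been named on 3 of these markers, before the venous-like cluster was divided.

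The remaining EC-like nuclei formed other classes. Immediate-early-gene-high nuclei (led by Fos and related genes) numbered 436, 200 and 283, interferon-responding nuclei 199, 127 and 116, and mitochondrial-RNA-high nuclei 301, 888 and 297. A small class of 115, 117 and 104 nuclei was led by Col15a1, Apln, Pgf, Mki67 and Top2a, the last 2 being genes of dividing cells. It is called Col15a1- and Mki67-led here. It is a part of the divided venous-like cluster, 336 of 615 nuclei, the other 279 being called venous-like. Apln took no part in forming that class but is among its leading genes. A last class of 1149, 2136 and 653 nuclei was led by genes such as Meg3, Kcnq5 and Prkg1, at least 5 of its 10 leading genes being higher in another kind of nucleus, and stayed unnamed. The unnamed nuclei had 19193, 18586 and 23222 CPM of the nuclear RNA Malat1 and 2.98, 5.72 and 1.6% mitochondrial UMIs, against 9463, 12448 and 11296 CPM and 8.9, 11 and 5.44% in capillary-like nuclei. They also met 3 capillary markers, as many as gave the capillary-like cluster its name. Over arterial- and venous-like nuclei together their log2 ratios were 1.71 (1.45 to 1.98) for Car4, 1.38 (1.21 to 1.56) for Rgcc, a cell cycle regulator gene, and 1.08 (0.91 to 1.26) for the transcription factor gene Meox2, with 1354 CPM of Rgcc and 1167 CPM of Meox2 against 1081 and 853 CPM in capillary-like nuclei. Their Kdr, at -0.09 (-0.21 to 0.04), was not raised. A comparison with the unnamed nuclei is thus not one of capillary with other vessels. A haemoglobin-high class of 24, 17 and 11 nuclei was too small to describe. How markers gave a name to a class was decided with the clusters in view, and the numbers of nuclei are not compared between libraries.

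Among all kept nuclei, the 10 genes were found mainly in ECs. EC-like nuclei held between 72.1% and 91.3% of each gene's UMIs in the untreated, 68.2% and 89.5% in the sham-operated and 71.8% and 85.8% in the denervated library, but only 26.1%, 30.4% and 12.7% of all UMIs. Over BA-like nuclei the 10 genes had a median log2 ratio of 4.82 (4.65 to 4.95), 4.34 (4.03 to 4.64) and 5.4 (4.89 to 5.76), beside a median of -0.15, -0.17 and -0.07 over all genes with at least 50 CPM in either class. All of the 9, 9 and 10 members at that level were 2-fold higher or more in EC-like nuclei, where 25.2%, 23.3% and 25.2% of all such genes were. This contrast chose the genes, and nothing is read from these counts.

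The widest gap was that of Btnl9 in the untreated, Dok4 in the sham-operated and Cd200 in the denervated library. Cd200 had 866, 425 and 881 CPM in EC-like nuclei and 22, 20.1 and 11.2 CPM in BA-like nuclei, log2 ratios of 5.3 (5.08 to 5.52), 4.4 (4.11 to 4.71) and 6.3 (5.91 to 6.72). The log2 ratios of Btnl9 were 5.36, 4.39 and 5.69 and those of Dok4 5.14, 4.81 and 5.5. Apln had the smallest in the untreated and sham-operated libraries, with 2.8 (2.2 to 3.43), 2.6 (1.38 to 4.04) and 4.72 (3.98 to 5.54). Timp4 was also seen in pericyte-like nuclei, those of the mural cells wrapped around capillaries. Timp4 had 293, 392 and 107 CPM in pericyte-like nuclei against 573, 460.5 and 432 CPM in EC-like nuclei, log2 ratios of EC-like over pericyte-like of 0.97 (0.73 to 1.21), 0.23 (0.07 to 0.40) and 2.02 (1.55 to 2.52). In the sham-operated library Timp4 was thus nearly as high in pericyte-like as in EC-like nuclei. Cd200 had 101, 142 and 82.9 CPM in pericyte-like nuclei, and in the 28, 126 and 50 Schwann-like nuclei it had 13, 11 and 3 UMIs, or 561, 147 and 92 CPM. All but the untreated Schwann-like level lay below that of barcodes with under 200 detected genes, given below, which can hold free RNA.

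The share of capillary-like nuclei with at least 1 UMI was read against BA-like nuclei, taken here as background, which were deeper, with a median of 1815, 1412 and 898 UMIs against 790.0, 507 and 448. Aqp1 was found in 78.9, 67.5 and 67.9% of capillary-like and 23.1, 13.2 and 7.36% of BA-like nuclei. Ly6c1 was found in 56.3, 54.8 and 27.5% of capillary-like and 6.63, 11 and 2.47% of BA-like nuclei, and Btnl9 in 53.3, 26.6 and 27% and 4.82, 3.79 and 1.17%. These 3 water channel and surface protein genes were the most widely seen in the untreated library. Cd200 was found in 48.4, 20.9 and 37.4% against 3.75, 2.69 and 1.07%, Rflnb in 38.9, 20.8 and 20.5% against 8.72, 4.17 and 2.91%, and Timp4 in 37.5, 26 and 22.8% against 4.8, 4.63 and 1.6%. Aplnr was found in 33.2, 18.1 and 21.9% against 4.6, 1.91 and 1.21%, C1qtnf9 in 29.9, 17.7 and 15.6% against 2.58, 1.94 and 0.687%, and Dok4 in 20.7, 8.17 and 12.7% against 1.39, 0.666 and 0.485%. Apln was the exception. Its share of 0.599, 0.133 and 0.509% in capillary-like nuclei lay close to the 0.705, 0.203 and 0.344% of the deeper BA-like nuclei. By level it stood higher, at 12, 2.36 and 17.8 CPM in capillary-like against 3.85, 1.41 and 3.58 CPM in BA-like nuclei, and the intervals overlapped in the sham-operated library only. They were 7.4 to 18.3 and 2.63 to 5.44 CPM in the untreated and 5.78 to 41.6 and 2.12 to 5.66 CPM in the denervated library. Thinned to 300 UMIs per nucleus the shares were 0.328, 0.0713 and 0.407% and 0.132, 0.0293 and 0.143%, from so few UMIs that the intervals overlapped in each library.

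**Figure D1:**
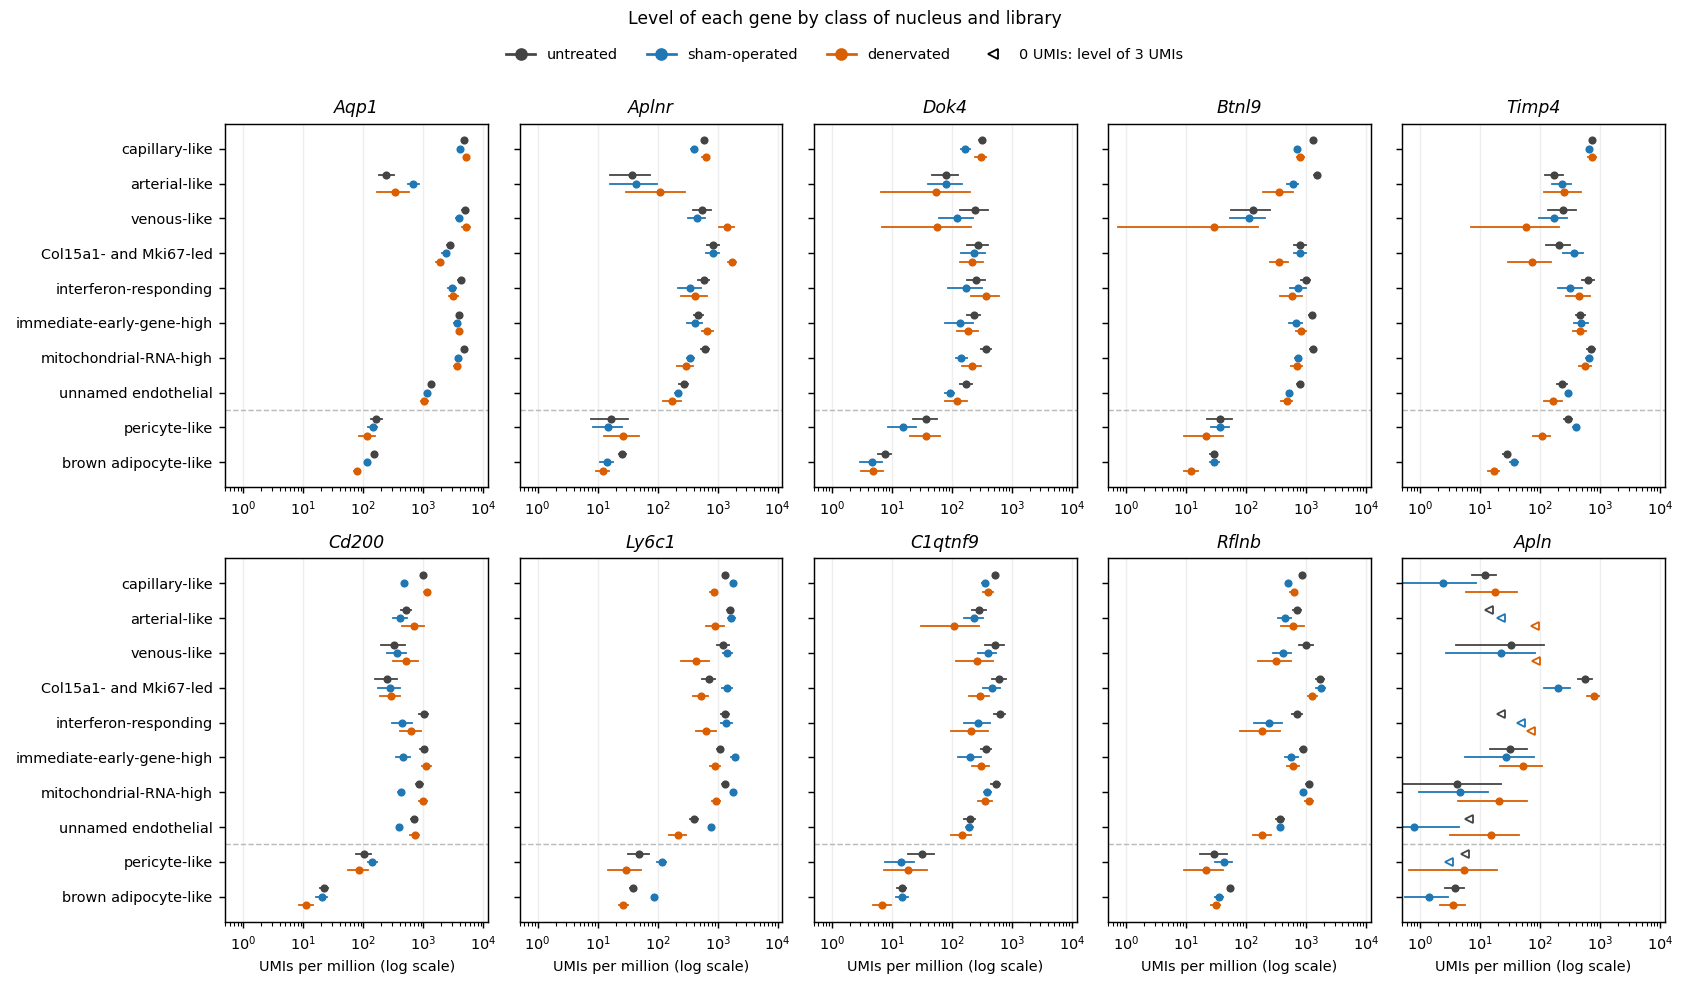
Level of each of the 10 genes (CPM, log axis) in each class of nuclei and library, with exact 95% Poisson intervals as bars. Open triangles stand for classes with 0 UMIs and are drawn at the level of 3 UMIs, and some bars of Apln are clipped at the left edge. Aqp1 and Aplnr are lowest among the EC classes in arterial-like nuclei, Btnl9 in venous-like nuclei, and Apln is highest in the Col15a1- and Mki67-led class.

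Aqp1 and Aplnr shared a pattern over the vessel types: both were high in capillary-like and venous-like nuclei and low in arterial-like nuclei. In capillary-like nuclei Aqp1 had 4793 CPM (4691 to 4896) in the untreated, 4095 CPM (3960.1 to 4234) in the sham-operated and 5121 CPM (4859.9 to 5393) in the denervated library. In venous-like nuclei it had 4887 CPM (4350.3 to 5471) in the untreated, 3842 CPM (3445 to 4273) in the sham-operated and 5182 CPM (4452 to 5997) in the denervated library. In arterial-like nuclei it had 242 CPM (181 to 317) in the untreated, 680.3 CPM (548 to 834) in the sham-operated and 332 CPM (171 to 579) in the denervated library. The capillary- and venous-like intervals overlapped in each library, and the arterial-like interval lay below both in each library. The log2 ratios of capillary-like over arterial-like nuclei were 4.31 (3.91 to 4.73), 2.59 (2.29 to 2.9) and 3.95 (3.14 to 4.9), or 19.8, 6.02 and 15.4-fold. Over venous-like nuclei they were -0.03 (-0.19 to 0.14), 0.09 (-0.07 to 0.26) and -0.02 (-0.24 to 0.21), all spanning 0. Arterial-like nuclei held 0.413%, 1.06% and 0.370% of the Aqp1 UMIs of ECs, but 6.56%, 4.13% and 3.72% of all EC UMIs.

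Aplnr, the apelin receptor, had 597 CPM (561 to 634) in the untreated, 408 CPM (366 to 453) in the sham-operated and 630.4 CPM (541 to 730.4) in the denervated library in capillary-like nuclei. In arterial-like nuclei only 8, 6 and 4 UMIs were counted, or 37.2, 44.4 and 111 CPM. In venous-like nuclei it had 552 CPM (382 to 771) in the untreated, 452 CPM (323 to 616) in the sham-operated and 1411 CPM (1044 to 1865) in the denervated library. The receptor was thus low in arterial-like nuclei of all libraries and stood out in venous-like nuclei of the denervated library. The log2 ratios of capillary-like over arterial-like nuclei were 4.0 (3.02 to 5.22), 3.2 (2.06 to 4.66) and 2.51 (1.13 to 4.4). Over venous-like nuclei they were 0.11 (-0.38 to 0.65), -0.15 (-0.62 to 0.36) and -1.16 (-1.63 to -0.67), and the last lay below 0.

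Btnl9 had the opposite gap: it was low in venous-like nuclei. It had 1285 CPM (1232 to 1339) in the untreated, 714 CPM (658 to 773) in the sham-operated and 798 CPM (697 to 909) in the denervated library in capillary-like nuclei. In venous-like nuclei 8, 10 and 1 UMIs gave 129.9, 113 and 28.8 CPM. The log2 ratios of capillary-like over venous-like nuclei were 3.31 (2.33 to 4.52), 2.66 (1.77 to 3.73) and 4.79 (2.3 to 10.1), or 9.89, 6.31 and 27.7-fold, the last resting on 1 venous-like UMI. In arterial-like nuclei Btnl9 had 1531 CPM (1370.5 to 1706) in the untreated, 599 CPM (476 to 744) in the sham-operated and 359 CPM (191 to 615) in the denervated library. Capillary-like over arterial-like gave -0.25 (-0.42 to -0.08), 0.25 (-0.08 to 0.61) and 1.15 (0.35 to 2.08), so that the arterial level was slightly higher in the untreated and lower in the denervated library, the latter from 13 arterial-like UMIs.

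Timp4 was the one gene whose capillary-like level exceeded both other vessel types beyond counting error in all 3 libraries. The values of Dok4 and Cd200 were also highest in capillary-like nuclei of the 3, but not with every interval. It had 737 CPM (697 to 778) in the untreated, 649.9 CPM (597 to 706) in the sham-operated and 730.1 CPM (634 to 837) in the denervated library in capillary-like nuclei. In arterial-like nuclei it had 172, 229 and 249 CPM from 37, 31 and 9 UMIs, and in venous-like nuclei 244, 169.5 and 57.6 CPM from 15, 15 and 2 UMIs. The log2 ratios were 2.1 (1.63 to 2.61), 1.5 (0.98 to 2.07) and 1.55 (0.60 to 2.7) over arterial-like nuclei. Over venous-like nuclei they were 1.6 (0.87 to 2.44), 1.94 (1.2 to 2.79) and 3.66 (1.79 to 6.72), and all 6 intervals lay above 0.

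Dok4, the docking protein, was lower in arterial-like nuclei, with 314, 167 and 303 CPM in capillary-like, 79.1, 81.3 and 55.3 CPM in arterial-like and 244, 124 and 57.6 CPM in venous-like nuclei. Its log2 ratios were 1.99 (1.3 to 2.78), 1.04 (0.16 to 2.08) and 2.45 (0.56 to 5.52) for capillary-like over arterial-like. Over venous-like nuclei they were 0.37 (-0.37 to 1.21), 0.43 (-0.45 to 1.46) and 2.39 (0.50 to 5.46), with the first 2 spanning 0. In the denervated library each of these 2 vessel classes held 2 Dok4 UMIs.

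Cd200 was higher in capillary-like nuclei in 2 of the 3 libraries. It had 978 CPM (932 to 1025) in the untreated, 481 CPM (436 to 530.3) in the sham-operated and 1154 CPM (1032 to 1287) in the denervated library in capillary-like nuclei. In arterial-like nuclei it had 521, 407 and 691 CPM and in venous-like nuclei 325, 362 and 518 CPM. Over arterial-like nuclei the log2 ratios were 0.91 (0.63 to 1.2), 0.24 (-0.17 to 0.68) and 0.74 (0.15 to 1.39), and over venous-like nuclei 1.59 (0.96 to 2.31), 0.41 (-0.11 to 0.98) and 1.15 (0.47 to 1.93). In the sham-operated library, where capillary-like Cd200 was lowest, both intervals spanned 0.

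C1qtnf9 was above arterial-like nuclei only. Ly6c1 and Rflnb lay close in capillary- and arterial-like nuclei. In the denervated library both were about 2-fold lower in venous- than in capillary-like nuclei, from 15 and 11 venous-like UMIs. C1qtnf9 had 516, 361 and 399 CPM in capillary-like, 284, 237 and 111 CPM in arterial-like and 519.5, 396 and 259 CPM in venous-like nuclei. Its log2 ratios over arterial-like nuclei were 0.86 (0.49 to 1.26), 0.61 (0.08 to 1.18) and 1.85 (0.45 to 3.75), all above 0, and over venous-like nuclei -0.01 (-0.52 to 0.55), -0.13 (-0.64 to 0.42) and 0.62 (-0.35 to 1.79), all spanning 0. Ly6c1 had 1331 CPM (1278 to 1386) in the untreated, 1831 CPM (1741 to 1924) in the sham-operated and 865 CPM (760.0 to 981) in the denervated library in capillary-like nuclei. In arterial-like nuclei Ly6c1 had 1587, 1693 and 912 CPM, and the log2 ratios of capillary-like over arterial-like were -0.25 (-0.42 to -0.09), 0.11 (-0.09 to 0.32) and -0.08 (-0.60 to 0.50). In venous-like nuclei it had 1250.1, 1458 and 432 CPM, with log2 ratios of 0.09 (-0.24 to 0.44), 0.33 (0.07 to 0.60) and 1.0 (0.25 to 1.86). Ly6c1 was thus present in all vessel types, and slightly higher in arterial- than in capillary-like nuclei of the untreated library. Venous-like over arterial-like gave -0.34 (-0.72 to 0.02), -0.22 (-0.54 to 0.10) and -1.08 (-2.07 to -0.16) for Ly6c1. Rflnb had 850.3, 507 and 619.7 CPM in capillary-like, 712, 444 and 608 CPM in arterial-like and 1007, 407 and 317 CPM in venous-like nuclei, and its log2 ratios were 0.26 (0.01 to 0.51), 0.19 (-0.20 to 0.61) and 0.03 (-0.62 to 0.74) for capillary-like over arterial-like. Over venous-like nuclei those of Rflnb were -0.24 (-0.61 to 0.15), 0.32 (-0.17 to 0.85) and 0.97 (0.09 to 2.0), and for Rflnb as for Ly6c1 the denervated library showed the widest gap.

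Intervals above 0 in all 3 libraries were held by 5 of 9 members for capillary-like over arterial-like and by 2 (Btnl9 and Timp4) for capillary-like over venous-like nuclei, beside 2.35% and 1.8% of all genes with at least 50 CPM in either class in each library. Counted by size, 4, 4 and 6 of the 9 members with at least 50 CPM in either class were 2-fold higher or more in capillary-like than in arterial-like nuclei, where 5.97%, 7.41% and 12.2% of all such genes were. Over venous-like nuclei 3, 2 and 5 of 9 were, beside 12.6%, 11.2% and 13.3% of all genes. The median log2 ratio of the members was 0.88, 0.61 and 1.35 over arterial-like and 0.10, 0.33 and 0.99 over venous-like nuclei. Apln, at 0 UMIs in arterial-like nuclei and in denervated venous-like ones, entered at its bound from 3 UMIs. Without it the medians were 0.91 untreated and 1.55 denervated over arterial-like, and 1.0 denervated over venous-like nuclei. Over both together the median of the members was 0.88 (0.54 to 1.65), 0.77 (0.11 to 1.15) and 0.92 (0.38 to 1.75). That sum mixes the vessel types unequally, from 294, 257 and 82 arterial-like and 72, 137 and 70 venous-like nuclei. Since the genes were picked from leaders of an endothelial group that may be rich in capillary-like nuclei, these counts are descriptions.

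**Figure D2:**
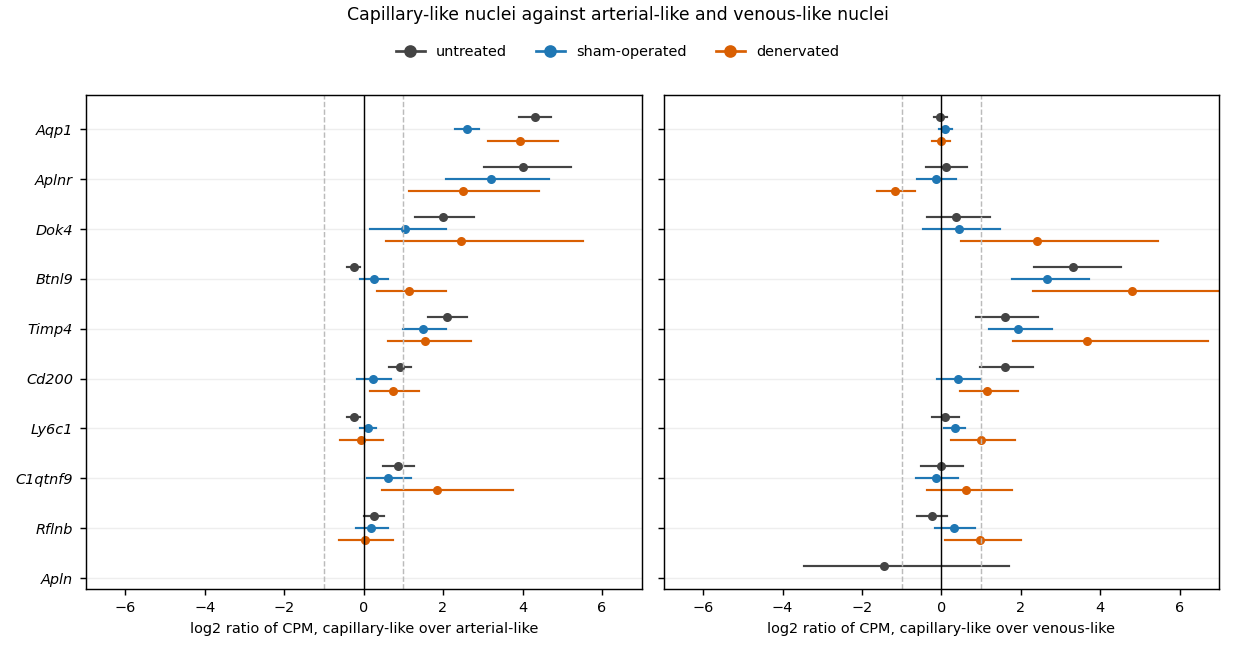
Log2 ratio of CPM of each gene in capillary-like nuclei over arterial-like nuclei (left) and over venous-like nuclei (right) in the 3 libraries, with exact 95% intervals for counting error as bars. Aqp1 and Aplnr lie far to the right only in the left panel and Btnl9 only in the right panel, Timp4 lies to the right of 0 in both, the denervated Btnl9 bar runs past the right edge, and Apln is drawn where its counts gave a ratio.

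Apln, the ligand of Aplnr, was low in capillary-like nuclei. Capillary-like nuclei held 21, 2 and 5 Apln UMIs, or 12, 2.36 and 17.8 CPM. Arterial-like nuclei held 0 in all 3 libraries, which allows up to 14, 22.2 and 82.9 CPM at a floor of 3 UMIs. Venous-like nuclei held 2, 2 and 0 UMIs. The Col15a1- and Mki67-led nuclei held 55, 17 and 74 UMIs, or 559 CPM (421 to 728) in the untreated, 197 CPM (115 to 315) in the sham-operated and 775 CPM (608 to 973) in the denervated library. This small class thus held 62.5%, 60.7% and 80.4% of the Apln UMIs of ECs, but 3.01, 2.64 and 9.81% of all EC UMIs. The log2 ratios of capillary-like over Col15a1- and Mki67-led nuclei were -5.55 (-6.35 to -4.8), -6.38 (-9.54 to -4.31) and -5.44 (-7.11 to -4.16), so that Apln was between 43.5- and 83.5-fold higher in the Col15a1- and Mki67-led class.

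Aplnr was also highest in the Col15a1- and Mki67-led class, with 834 CPM (663 to 1035) in the untreated, 823 CPM (642 to 1038) in the sham-operated and 1738 CPM (1484 to 2024) in the denervated library. Capillary-like over Col15a1- and Mki67-led nuclei gave log2 ratios of -0.48 (-0.81 to -0.14), -1.01 (-1.38 to -0.62) and -1.46 (-1.78 to -1.15) for the receptor, all below 0. Ligand and receptor were thus both high in 1 class. Of its 115, 117 and 104 nuclei, 23, 9 and 22 held an Apln UMI, or a share of 20, 7.69 and 21.2%, and 47, 41 and 47 held an Aplnr UMI, or 40.9%, 35.0% and 45.2%. These counts depend on depth, with a median of 779, 652 and 536 UMIs per nucleus.

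Rflnb was the other gene that was highest in the Col15a1- and Mki67-led class, with 1698, 1761 and 1277 CPM and log2 ratios of capillary-like over that class of -1.0 (-1.23 to -0.76), -1.8 (-2.07 to -1.52) and -1.04 (-1.39 to -0.70). Cd200 and Timp4 went the other way. Cd200 had 244, 278 and 283 CPM there, its lowest level among the EC classes in all 3 libraries, with log2 ratios of capillary-like over that class of 2.0 (1.42 to 2.65), 0.79 (0.20 to 1.45) and 2.03 (1.46 to 2.65). Timp4 had 203, 359 and 73.3 CPM and log2 ratios of 1.86 (1.22 to 2.57), 0.86 (0.33 to 1.43) and 3.32 (2.25 to 4.65). Aqp1 had 2745, 2364 and 1853 CPM and log2 ratios of 0.80 (0.63 to 0.98), 0.79 (0.59 to 1.0) and 1.47 (1.24 to 1.7). The class thus combined high Apln, Aplnr and Rflnb with lower Aqp1, Timp4 and Cd200, in each library. Btnl9 gave log2 ratios of 0.70 (0.37 to 1.04), -0.16 (-0.53 to 0.22) and 1.16 (0.64 to 1.73), Ly6c1 0.90 (0.56 to 1.27), 0.35 (0.08 to 0.63) and 0.73 (0.28 to 1.19), C1qtnf9 -0.27 (-0.64 to 0.13), -0.36 (-0.84 to 0.15) and 0.44 (-0.16 to 1.1) and Dok4 0.19 (-0.36 to 0.81), -0.47 (-1.15 to 0.29) and 0.46 (-0.24 to 1.23).

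**Figure D3:**
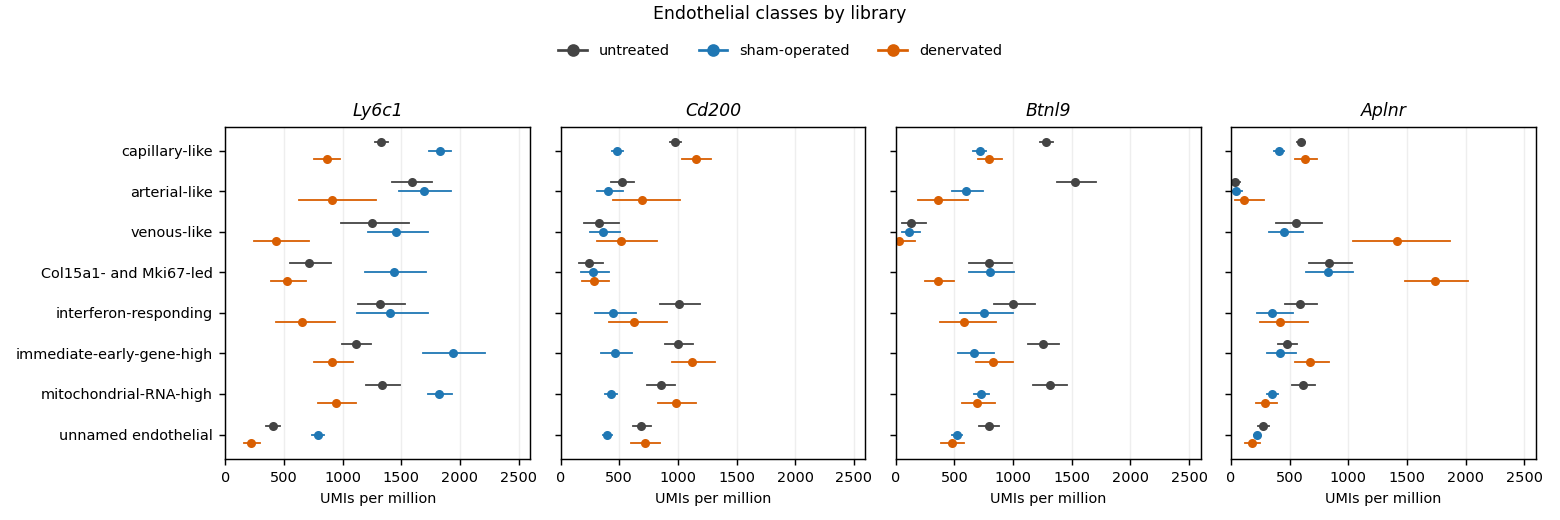
CPM (linear axis from 0) of Ly6c1, Cd200, Btnl9 and Aplnr in 8 EC classes, with the 3 libraries side by side and exact 95% Poisson intervals as bars. Ly6c1 is highest in the sham-operated and lowest in the denervated library in all 8 classes, Cd200 is higher in the denervated than in the sham-operated library in all 8, Btnl9 is near 0 in venous-like nuclei, and Aplnr reaches its highest levels in venous-like and Col15a1- and Mki67-led nuclei of the denervated library.

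In interferon-responding nuclei, ECs that carry RNA of antiviral genes such as Ifit1, the 10 genes were near or below their capillary-like level. Aqp1 had 4149, 2965 and 3154 CPM, and its log2 ratios of interferon-responding over capillary-like were -0.21 (-0.33 to -0.08), -0.47 (-0.69 to -0.25) and -0.70 (-0.96 to -0.44), all below 0. Rflnb had 714, 239 and 186 CPM and log2 ratios of -0.25 (-0.57 to 0.05), -1.08 (-1.93 to -0.35) and -1.74 (-2.97 to -0.73). Timp4 had log2 ratios of -0.24 (-0.58 to 0.08), -1.03 (-1.75 to -0.39) and -0.73 (-1.49 to -0.05) and Cd200 of 0.04 (-0.22 to 0.30), -0.11 (-0.72 to 0.44) and -0.88 (-1.51 to -0.31). None of the 10 genes had an interval above 0 in any library, and the share of all genes with such an interval was not taken. By size, 0 of 9 members were 2-fold higher or more in each library, where 5.05%, 12.6% and 16.5% of all genes were. Those 2-fold lower or more were 0, 2 and 1, beside 4.43%, 9.11% and 13.2%. The genes were picked as leaders of an endothelial group, so these counts are descriptions. The median over the 9 members other than Apln was -0.21, -0.38 and -0.70, beside 0.04, 0.10 and 0.12 over all genes. In this class Apln had 0 UMIs in all 3 libraries, and with Apln at its bound from 3 UMIs the medians were -0.12 in the untreated and -0.65 in the denervated library.

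In immediate-early-gene-high nuclei Timp4 was lower than in capillary-like nuclei, with 466, 479.8 and 459 CPM and log2 ratios of -0.66 (-0.93 to -0.40), -0.44 (-0.87 to -0.03) and -0.67 (-1.11 to -0.25). Aqp1 was lower as well, with log2 ratios of -0.30 (-0.40 to -0.21), -0.18 (-0.33 to -0.03) and -0.36 (-0.51 to -0.22). Cd200 and Btnl9 showed no difference that exceeded counting error, with 0.04, -0.06 and -0.04 and -0.03, -0.09 and 0.05. Apln had 9, 3 and 7 UMIs there, too few to compare in the sham-operated library, and the log2 ratios over capillary-like nuclei were 1.4 (0.09 to 2.59) in the untreated and 1.56 (-0.31 to 3.56), which spans 0, in the denervated library. In mitochondrial-RNA-high nuclei Aqp1 was at 4829, 3730.0 and 3582 CPM, Btnl9 at 1311, 729 and 696 CPM and Timp4 at 714, 643 and 566 CPM, and Rflnb at 1120.1, 902 and 1112 CPM against 850.3, 507 and 619.7 CPM in capillary-like nuclei. That class had 18.2, 31.4 and 16.4% mitochondrial UMIs.

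The unnamed EC nuclei were lower in all members that gave a ratio, with 1 interval that spanned 0 (Apln of the denervated library). Capillary-like over unnamed gave log2 ratios of 1.86 (1.74 to 1.98), 1.82 (1.73 to 1.91) and 2.3 (2.09 to 2.52) for Aqp1 and 1.71 (1.5 to 1.94), 1.21 (1.1 to 1.33) and 2.0 (1.52 to 2.5) for Ly6c1. Among the 9 genes other than Apln, Cd200 differed least, with 0.51 (0.33 to 0.69), 0.27 (0.08 to 0.46) and 0.69 (0.40 to 0.98), and Btnl9 gave 0.70 (0.54 to 0.86), 0.45 (0.29 to 0.62) and 0.74 (0.38 to 1.1). Of the 9 members with at least 50 CPM in either class, 6, 3 and 7 were 2-fold higher or more in capillary-like nuclei, where 12%, 4.53% and 18.3% of all genes were. Since the genes were picked as leaders of an endothelial group, these counts are descriptions, and nothing is read from them. These nuclei were shallow, with a median of 346, 477 and 278 UMIs, and higher in Malat1, and the part of this in the lower levels was not tested.

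Ordered by CPM over the 8 EC classes, Aqp1 was lowest in arterial-like nuclei in all 3 libraries, and the arterial-like interval was apart from that of the next class each time. At its upper end the capillary- and venous-like intervals overlapped in each library. Aplnr was also lowest in arterial-like nuclei in all 3 libraries and highest in Col15a1- and Mki67-led nuclei, though its interval there overlapped that of the next class in the untreated and denervated libraries. Btnl9 was lowest in venous-like nuclei in all 3 libraries, with an interval apart from the next class, and its other 7 classes formed a row in which every neighbour overlapped. Apln was highest in the Col15a1- and Mki67-led class and apart from the next class in all 3 libraries, and its other 7 classes overlapped as neighbours. Timp4 was highest in capillary-like nuclei in all 3 libraries, but its neighbour, the mitochondrial-RNA-high class, overlapped, as did all its neighbours. Rflnb was highest in Col15a1- and Mki67-led nuclei in all 3 libraries, apart from the next class in 2 of them. Ly6c1 was lowest in the unnamed class in all 3 libraries. For Cd200 and C1qtnf9, no neighbours were apart except C1qtnf9 of capillary-like over immediate-early-gene-high nuclei in the untreated library. For Dok4 only arterial-like nuclei of the untreated library were apart from the class above them.

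Between the denervated and the sham-operated library, Ly6c1 and Cd200 differed most in capillary-like nuclei, in opposite ways, if Apln with its 5 and 2 UMIs is set aside. Against the untreated library, again without Apln, Btnl9 differed most in the denervated and Cd200 in the sham-operated library. Ly6c1 was highest in the sham-operated library, and its capillary-like log2 ratios were -0.62 (-0.82 to -0.43) for denervated over untreated, -1.08 (-1.28 to -0.88) for denervated over sham-operated and 0.46 (0.37 to 0.55) for sham-operated over untreated. The order sham-operated, untreated, denervated held for Ly6c1 in all 8 EC classes. Denervated over sham-operated was below 0 with its interval in 8 of 8 classes, from -1.87 to -0.89, and sham-operated over untreated was above 0 in 8 of 8, with its interval in 5, from 0.08 to 1.01. Nuclei that should lack Ly6c1 showed the same order at a lower level, with 38.2, 87.4 and 26.7 CPM in BA-like and 48.5, 116 and 29.4 CPM in pericyte-like nuclei. Barcodes with under 200 detected genes, which can hold free RNA, had 232, 719 and 234 CPM. These barcodes were not alike between libraries, with 43.4, 59 and 6.77% mitochondrial UMIs. Their general EC markers summed to 5759, 4901 and 11166 CPM, against 13727, 11726 and 11627 CPM in EC-like nuclei. The profile of free RNA was taken from them, and the part of shallow EC nuclei in it was not tested. The share of free RNA was estimated from markers of other cell types at 0.419, 0.606 and 0.472 of the capillary-like UMIs and 0.437, 0.755 and 0.591 of all EC-like UMIs, against 0.0541, 0.0704 and 0.0248 in BA-like nuclei. The estimate takes all RNA of those markers as free and is therefore an upper one. These shares were large and differed between libraries, and no level or share of nuclei given here is corrected for them unless stated. With that share subtracted, denervated over sham-operated was -0.64 (-0.86 to -0.43) for Ly6c1 and sham-operated over untreated 0.26 (0.16 to 0.36), both smaller but on the same side of 0. Brackets after such a subtraction leave out the error of the estimated share. With the unnamed nuclei included, sham-operated over untreated was 0.078 (0.00 to 0.16) for Ly6c1, with an interval that just reached 0. With a minimum of 500 detected genes no class was named capillary-like, and unnamed nuclei alone took its place. In them the order did not hold, and the ratios were -0.022 (-0.34 to 0.28) and -0.38 (-0.51 to -0.26). After each nucleus was thinned to 300 UMIs, which kept 98.4, 93.2 and 83.4% of the capillary-like nuclei, Ly6c1 was found in 29.5, 39.8 and 18.1% of them and in 1.1, 2.31 and 0.611% of BA-like nuclei.

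Cd200 was lowest in the sham-operated library, and its capillary-like log2 ratios were 0.24 (0.06 to 0.41) for denervated over untreated, 1.26 (1.05 to 1.48) for denervated over sham-operated and -1.02 (-1.18 to -0.87) for sham-operated over untreated. Denervated over sham-operated was above 0 in 8 of 8 EC classes, with its interval in 5, from 0.02 to 1.28. Sham-operated over untreated was below 0 in 6 of 8, with its interval in 5. The 3 classes whose interval spanned 0 were the arterial-like, venous-like and Col15a1- and Mki67-led nuclei. In interferon-responding nuclei Cd200 was also below the untreated level in the denervated library, with -0.69 (-1.34 to -0.08). Thinned to 300 UMIs, Cd200 was found in 25.8, 12.9 and 27.7% of capillary-like and 0.596, 0.556 and 0.387% of BA-like nuclei. BA-like nuclei did not show this order, with 22, 20.1 and 11.2 CPM, while the low-gene barcodes had 222, 176 and 471 CPM. With free RNA subtracted, denervated over sham-operated was 1.56 (1.32 to 1.8) for Cd200. The low-gene barcodes behind that subtraction differed in make-up between libraries, as given above.

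Btnl9 was highest in capillary-like nuclei of the untreated library. Its capillary-like log2 ratios were -0.69 (-0.89 to -0.49) for denervated over untreated, 0.16 (-0.07 to 0.38) for denervated over sham-operated and -0.85 (-0.98 to -0.72) for sham-operated over untreated. Denervated over untreated was below 0 in 8 of 8 EC classes, with its interval in 7, from -2.17 to -0.60. The widest gap with its interval below 0 was in arterial-like nuclei, with -2.09 (-3.02 to -1.3), from 329 and 13 UMIs. Rflnb was likewise highest in capillary-like nuclei of the untreated library, with log2 ratios of -0.46 (-0.69 to -0.23) for denervated over untreated, 0.29 (0.03 to 0.55) for denervated over sham-operated and -0.75 (-0.90 to -0.59) for sham-operated over untreated, and denervated over untreated was below 0 in 8 of 8 classes, with its interval in 6. C1qtnf9 gave -0.37 (-0.67 to -0.09) for denervated over untreated, 0.14 (-0.18 to 0.46) for denervated over sham-operated and -0.51 (-0.71 to -0.33) for sham-operated over untreated and was below 0 in 8 of 8 classes in both the denervated and the sham-operated library against the untreated one, with 4 intervals each.

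Aqp1 and Timp4 had small ratios between libraries in capillary-like nuclei, but these depended on the processing. In 3 of the 9 alternatives no class was named capillary-like, and unnamed EC nuclei alone took its place. The ranges below are thus not of capillary-like nuclei alone. Over 9 alternatives, denervated over untreated ran from -2.11 to 0.37 for Aqp1, with 3 on the reported side of 0, and from -1.74 to 0.28 for Timp4. Denervated over sham-operated ran from -1.42 to 1.52 for Aqp1 and from -1.29 to 1.04 for Timp4. Sham-operated over untreated stayed below 0 in all 9, from -1.42 to -0.24 for Aqp1, each wider than the reported ratio, and from -1.01 to -0.11 for Timp4. The Aqp1 log2 ratios were 0.10 (0.01 to 0.18) for denervated over untreated, 0.32 (0.23 to 0.41) for denervated over sham-operated and -0.23 (-0.28 to -0.17) for sham-operated over untreated. Those of Timp4 were -0.01 (-0.23 to 0.20) for denervated over untreated, 0.17 (-0.07 to 0.40) for denervated over sham-operated and -0.18 (-0.33 to -0.04) for sham-operated over untreated, and its share of thinned capillary-like nuclei with a UMI was 16.9, 16.7 and 16.7%. Dok4 had -0.05 (-0.40 to 0.28) for denervated over untreated, 0.85 (0.45 to 1.25) for denervated over sham-operated and -0.91 (-1.18 to -0.64) for sham-operated over untreated, so its sham-operated level stood below the other 2. Over the same 9 alternatives Dok4 of denervated over sham-operated ran from -0.32 to 1.74 and turned sign in 1.

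Under the reported settings, Aplnr showed its widest library differences outside capillary-like nuclei. In capillary-like nuclei the log2 ratios were 0.08 (-0.16 to 0.31) for denervated over untreated, 0.63 (0.36 to 0.89) for denervated over sham-operated and -0.55 (-0.73 to -0.37) for sham-operated over untreated. In venous-like nuclei denervated over untreated was 1.35 (0.69 to 2.03) and denervated over sham-operated 1.64 (1.01 to 2.28), from 34, 40 and 49 UMIs. In Col15a1- and Mki67-led nuclei they were 1.06 (0.67 to 1.46) and 1.08 (0.67 to 1.5), from 82, 71 and 166 UMIs. In both classes the receptor was about 2-fold higher in the denervated library or more, beyond counting error, while in capillary-like nuclei denervated over untreated spanned 0. Of all genes with at least 50 CPM in either library, 22.1% and 24.2% were 2-fold higher or more in denervated venous-like nuclei. These shares, over untreated and sham-operated, were 19% and 23.9% in Col15a1- and Mki67-led nuclei, against 3.49% and 10.7% in capillary-like nuclei. Such a difference was thus common in these small classes. Both classes are parts of the divided venous-like cluster, and their library ratios were not run under the alternatives. The capillary-like value was run and was not steady. In 3 of the 9 alternatives, however, unnamed EC nuclei alone took the place of capillary-like ones. Over all 9, denervated over untreated ran from -1.79 to 0.30 for Aplnr, with 3 on the reported side of 0. Denervated over sham-operated ran from -1.05 to 1.55. In mitochondrial-RNA-high and unnamed nuclei denervated over untreated lay below 0, with -1.06 (-1.59 to -0.57) and -0.62 (-1.21 to -0.07). All EC-like nuclei together had 512, 319 and 601 CPM of Aplnr. Its ligand Apln in Col15a1- and Mki67-led nuclei gave 0.47 (-0.05 to 1.0) for denervated over untreated, 1.98 (1.2 to 2.83) for denervated over sham-operated and -1.51 (-2.38 to -0.70) for sham-operated over untreated, so the sham-operated level stood lowest. In all EC-like nuclei Apln had 26.9, 8.56 and 94.5 CPM, from 88, 28 and 92 UMIs. These UMIs came from 46, 16 and 35 nuclei. Most lay in the Col15a1- and Mki67-led class, whose share of EC UMIs differed between libraries, so this pooled level mixes classes unequally.

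Several measures moved with the libraries and are given beside these differences. Capillary-like nuclei had a median of 790.0, 507 and 448 UMIs, 9463, 12448 and 11296 CPM of Malat1 and 8.9, 11 and 5.44% mitochondrial UMIs. The 8 adipocyte markers summed to 1212, 1329 and 1457 CPM and the 9 pericyte markers to 204, 303 and 292 CPM in these nuclei, with only the pericyte marker Vtn at 0, in the denervated library. The part of depth, RNA quality and RNA of adipocytes and pericytes in the library differences was not tested.

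Over the 10 genes, the median log2 ratio in capillary-like nuclei was -0.03 (-0.53 to 0.19) for denervated over untreated, 0.31 (0.13 to 0.50) for denervated over sham-operated and -0.65 (-0.82 to -0.35) for sham-operated over untreated, beside 0.05, 0.13 and -0.06 over all genes with at least 50 CPM in either library. The 3 comparisons share libraries and are not independent. For denervated over untreated 0 of 9 members were 2-fold higher or more and 0 of 9 were 2-fold lower or more, where 3.49% and 1.87% of all genes were. For denervated over sham-operated these were 1 (Cd200) and 1 (Ly6c1) of 9, beside 10.7% and 5.85%. For sham-operated over untreated they were 0 and 1 (Cd200), beside 3.14% and 3.44%. The members' counts were near these shares and are no result about the members. Counting error alone was exceeded more often, by members and by other genes. Of the same 9 members, 1 (Ly6c1) had an interval above 0 and 8 below for sham-operated over untreated, where 19% and 25.2% of all genes had. For denervated over sham-operated 5 lay above and 1 (Ly6c1) below, beside 22.3% and 12.4%, and for denervated over untreated 2 (Aqp1 and Cd200) above and 4 below, beside 13.3% and 7.68%. An interval leaves 0 more easily for a gene with more UMIs, so these shares are no matched background. Over the alternatives sham-operated over untreated kept its sign throughout for 9 of the 10 genes, all but Ly6c1. Denervated over sham-operated did so only for Ly6c1, Cd200 and Apln, and denervated over untreated only for Btnl9 and Ly6c1. In 3 of these alternatives, unnamed EC nuclei alone took the place of capillary-like ones.

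**Figure D4:**
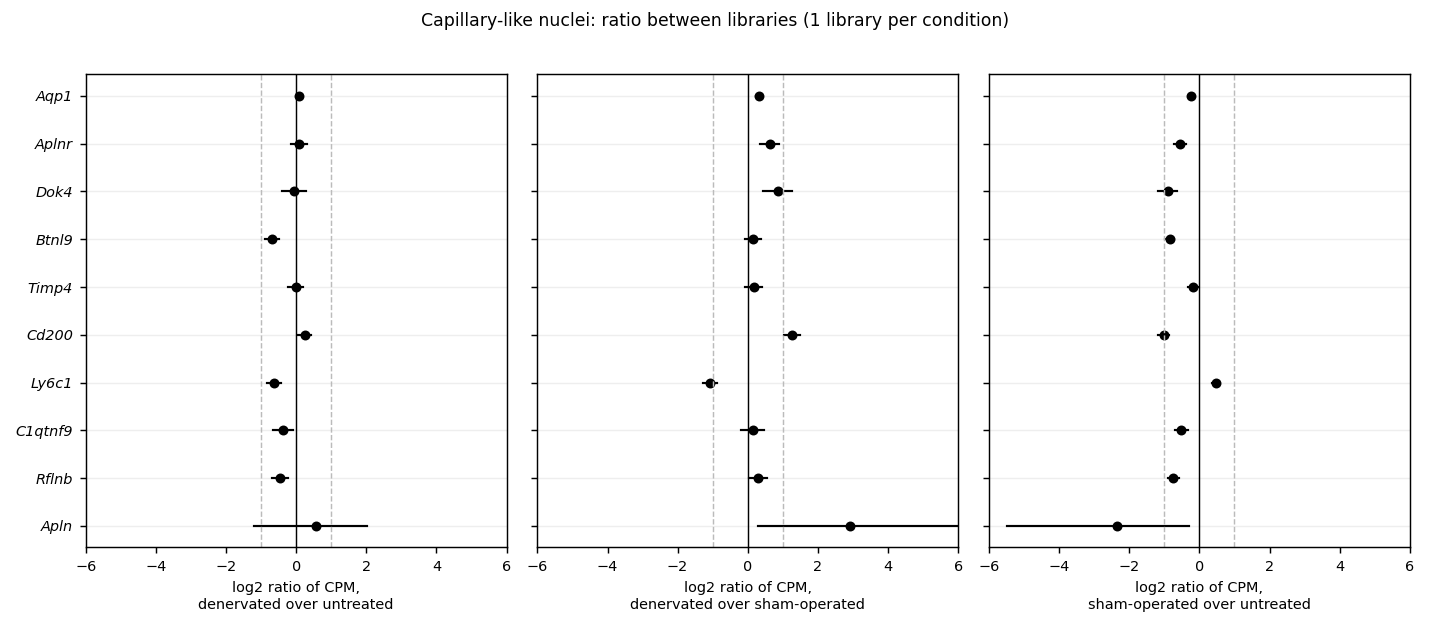
Log2 ratio of CPM of each gene in capillary-like nuclei between the libraries, with exact 95% intervals for counting error as bars and dashed lines at a 2-fold difference. Ly6c1 and Cd200 pass a dashed line in opposite directions for denervated over sham-operated, most other genes lie between the lines, and the Apln bar of denervated over sham-operated, from 5 and 2 UMIs, runs past the edge.

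Genes related to the members were looked at by lists, and all counts below leave out the members. Of the 10 other genes of the apelin system, 5 had at least 50 CPM in EC-like nuclei of all 3 libraries, 5 had an interval above BA-like nuclei in all 3, and 2 lay below, where 11.4% and 12.5% of all genes listed did. The list also held Calcrl and Ramp2 for comparison. These 2, which together form the receptor of adrenomedullin, had 246, 190.0 and 233 and 279, 358 and 281 CPM in EC-like nuclei. Gnai2, an inhibitory G protein subunit through which the apelin receptor can signal, had 531, 374 and 493 CPM, while Apela, the second ligand of Aplnr, stayed under 1 CPM. The peptidase Mme, which can cleave apelin, was lower in EC-like than in BA-like nuclei. Of the 8 other aquaporins only Aqp7, the glycerol channel, passed 50 CPM, with 443, 339 and 315 CPM, and 2 lay above BA-like nuclei.

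Of 13 other genes of metalloproteinases and their inhibitors, 7 passed 50 CPM and 9 lay above BA-like nuclei in all 3 libraries. Timp3, a matrix-bound inhibitor, had 1385, 1099.6 and 920.4 CPM and the protease Adamts9 727, 589.7 and 669 CPM, whereas Timp1, Mmp2 and Mmp9 were nearly missing, at 4.11 CPM or less. Of 8 other Ly6 genes 3 passed 50 CPM and 4 lay above BA-like nuclei. Ly6a (Sca-1) had 372, 526 and 318 CPM, Ly6e 884, 925 and 933 CPM and Gpihbp1 799, 874 and 741 CPM. In capillary-like nuclei Ly6a had log2 ratios of -0.89 (-1.23 to -0.57) for denervated over sham-operated and 0.73 (0.56 to 0.90) for sham-operated over untreated, and Ly6e -0.26 (-0.46 to -0.06) and 0.35 (0.23 to 0.46). Both were thus highest in capillary-like nuclei of the sham-operated library, as Ly6c1 was, and the part of the sequence shared within the family was not tested.

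Of 11 other genes of the C1q and TNF related list, 3 passed 50 CPM, 3 lay above and 3 below BA-like nuclei. Cdh13, which binds adiponectin at the EC surface, had 875, 973 and 1294 CPM, and its capillary-like log2 ratios were 0.62 (0.44 to 0.78) for denervated over untreated and 0.37 (0.19 to 0.55) for denervated over sham-operated. Adipor1 had 155, 113 and 129 CPM and Adipor2, with 470.1, 676 and 436 CPM, was lower than in BA-like nuclei. None of the 6 other butyrophilin-like genes and none of the 4 Cd200 receptors passed 50 CPM or lay above BA-like nuclei. Cd200r1, the main receptor, had 0.305, 0 and 2.05 CPM and Cd200r2 3.05, 3.36 and 1.03 CPM in EC-like nuclei, which carry the ligand. Among the other refilin and filamin genes, Flna passed with 109, 143 and 200.3 CPM, and Rflna, the other refilin, had 0 CPM in all 3 libraries. Of 10 other docking protein genes and receptors 2 passed, with Tek, the angiopoietin receptor, at 473, 567 and 348 CPM and Insr at 61.7, 77.3 and 84.2 CPM, 1 lay above BA-like nuclei (Tek) and 1 below (Insr).

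Of 16 genes of capillary fatty acid handling, 11 passed 50 CPM, 9 lay above and 5 below BA-like nuclei. Cd36 had 5294, 4386 and 3504 CPM and the fatty acid binding protein gene Fabp4 3618, 5022 and 2756 CPM in EC-like nuclei. Tcf15, a capillary transcription factor that acts with Meox2, had capillary-like log2 ratios of 0.75 (0.48 to 1.03) for denervated over sham-operated and -1.05 (-1.23 to -0.87) for sham-operated over untreated, so its sham-operated level was lowest, as for Cd200. Angptl4, an inhibitor of lipoprotein lipase, had -2.11 (-3.46 to -1.01) and 1.97 (1.45 to 2.51), with its sham-operated level highest. Over all lists, in capillary-like nuclei, 5 of 33 other genes with at least 50 CPM in either library had an interval above 0 and 7 below for denervated over untreated, 6 and 10 of 34 for denervated over sham-operated, and 12 and 13 of 34 for sham-operated over untreated, to be read beside the shares of all genes given above.

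The genes most like the members were found by Pearson's r of log2(CPM + 1) over 43 points, each a class of nuclei in a library, among 11186 genes. The points share libraries and depth, and ECs make up many of them, so r describes mainly the EC pattern. Closest to the mean of the 10 genes was Kdr with r = 0.962, followed by the transcription factor gene Ets2 (0.928), Ctnnb1, which encodes β-catenin (0.925), Adgrf5 (0.925) and Robo4 (0.922), with Adgrg1, Gimap4, Cd93 and Tnfsf10 also among the 10 likest, down to 0.904. Single members differed. Btnl9 was most like Dll4, the Notch ligand of arterial and tip cells (0.908), Aqp1 most like Kdr (0.936), Aplnr most like Rasip1 (0.944) and then the member Aqp1 (0.902). Ly6c1 was most like Ramp2 (0.93), C1qtnf9 like Cd93 (0.954), Rflnb like Rasgrp3 (0.94) and Timp4 like Slc9a3r2 (0.903). Cd200 was most like Klf7 (0.901) and Kitl (0.894), the gene of stem cell factor, and Dok4 like Gnb1 (0.852). Apln had the weakest likeness, with 0.729 for Prg2 and 0.719 for Birc5, a gene of dividing cells.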

How the data were processed

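Nuclear RNA of 3 libraries was counted on the BD Rhapsody whole transcriptome platform. The deposited tables hold whole-number UMI counts per barcode and gene, not normalized, that the authors made with the BD WTA Rhapsody Analysis Pipeline (1.9-nuclei, GRCm38, GENCODE vM19) as headers of 2 tables (untreated, denervated) state. The sham-operated table has no header, and the submitters' processing notes list GRCh38, which is a human build, and Seurat 4.0.6. The strand setting of the counting is not given in the sources used here. The study's later removal of empty droplets, ambient RNA and doublets is not in these tables. From the counts, the present work dropped barcodes with fewer than 200 genes or over 50% mitochondrial UMIs, and dropped as doublets those with at least 3 UMIs of each of 2 marker lists when the smaller sum reached 25% of the larger.

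Clusters came from 2000 variable genes without the 10 genes, 30 principal components, 20 neighbours and Louvain resolution 0.5. A class was named from at least 3 markers raised 2-fold, and stayed unnamed if 5 of its 10 leading genes were higher in another kind of nucleus. That last rule and the split of the venous-like cluster were set after seeing the clusters. UMIs were summed per class and library. Intervals are exact (Poisson for CPM, conditional binomial for ratios), a count of 0 was set at a floor of 3 UMIs, and no ratio is given when both sides had 3 UMIs or fewer. Scripts used python 3.11.15, numpy 2.4.6, scipy 1.17.1, scikit-learn 1.9.0 and igraph 0.11.9, and were tested on simulated data. The text names the 10 genes, genes of the lists and markers, the leading genes of classes, the 10 genes likest the mean pattern and up to 2 likest per member. Likeness used classes with at least 20000 UMIs and genes with at least 50 CPM in 1 of them. The members and lists were chosen with earlier results of these data known. Alternatives to the filters, clustering and scale were tried, and 0 columns of other samples were present. A few genes of the lists and of the likeness ranking are not reported here.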

Additional observations from a re-analysis of the deposited data

Results flagged for a closer look

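The capillary-like over arterial-like log2 ratio of Btnl9 was -0.25 in the untreated library, with its interval below 0, and 1.15 in the denervated library, with its interval above 0. The denervated value rests on 13 arterial-like UMIs, and the untreated one on 329. Ly6c1 likewise had a log2 ratio of capillary-like over arterial- and venous-like nuclei together of -0.18 in the untreated and 0.19 in the sham-operated library, with intervals on opposite sides of 0. The sham-operated value kept its sign in 4 of 10 alternatives and ran from -0.61 to 0.38. In 3 of the 10 alternatives unnamed EC nuclei alone took the place of capillary-like ones. The opposite signs of Ly6c1 thus depend on the processing. Arterial-like nuclei numbered 294, 257 and 82 and venous-like nuclei 72, 137 and 70 in the 3 libraries, so the sum weighs the vessel types unequally. Each pair drew attention because the libraries lay on opposite sides of 0. With 1 library per condition the differences were not tested.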

How the results depend on the processing

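No paired analysis was possible because each condition is 1 library, and for the same reason no replicate could be left out. The medians reported over the 10 genes were 0.88, 0.77 and 0.92 for capillary-like over arterial- and venous-like nuclei, 4.82, 4.34 and 5.40 for EC-like over BA-like nuclei, and -0.03, 0.31 and -0.65 for denervated over untreated, denervated over sham-operated and sham-operated over untreated. A median counts as moved where it left its reported interval, bounded by the medians of the genes' own interval ends. By this measure no median moved with EC resolution 1 (9 values). With at most 10% mitochondrial UMIs or each library clustered alone, only the 3 EC-like over BA-like medians had a value, and none moved. That contrast chose the genes. With a minimum of 500 genes the denervated EC-like over BA-like median was 5.82. With a minimum of 500 genes, 10% mitochondrial UMIs or each library alone, no cluster was named capillary-like and the other medians have no value. Without doublet removal the denervated capillary-like median was 0.28 and sham-operated over untreated -0.86, and with the 10 genes kept for clustering they were 0.32 and -0.84. Ambient RNA was profiled from the low-gene barcodes, whose make-up differed between libraries. With ambient RNA subtracted the EC-like over BA-like medians were 5.68, 5.82 and 6.92, the sham-operated capillary-like median was 1.16, denervated over sham-operated 0.76 and sham-operated over untreated -0.88. On means of log2 counts per 10000 plus 1, a scale that compresses low levels, they were 1.04, 0.75 and 0.71 for EC-like over BA-like, 0.51 for the untreated capillary-like median and 0.049 for denervated over sham-operated.

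A further 5 alternatives were chosen after seeing the data. An unsplit venous-like cluster moved none of 3 medians, but 14 of the 29 single-gene ratios left their reported intervals. With the unnamed EC nuclei added to the capillary-like ones, sham-operated over untreated was -0.84. The last 3 alternatives used 500 genes, 10% mitochondrial UMIs or each library alone, where no cluster was named capillary-like. Unnamed EC nuclei alone then took the place of capillary-like ones, so these values describe another class. With 500 genes, their sham-operated median over arterial- and venous-like nuclei was -0.46. Among single genes Aqp1 was at -0.063, Aplnr at -0.85, C1qtnf9 at -0.67 and Dok4 at -0.30. In that setting denervated over sham-operated was 1.54 and sham-operated over untreated -1.23. With unnamed nuclei alone and 10% mitochondrial UMIs, the medians over arterial- and venous-like nuclei were 0.45 untreated and 0.059 sham-operated. Denervated over sham-operated was 0.57 and sham-operated over untreated -0.93. With unnamed nuclei alone and each library clustered by itself, the sham-operated median over arterial- and venous-like nuclei was 0.069. Denervated over untreated was -1.68 and denervated over sham-operated -0.96. Over 10 alternatives, these 3 included, the sham-operated ratios fell as low as -1.28 for Rflnb, -0.61 for Ly6c1 and -0.17 for Cd200. Reported for capillary-like over arterial- and venous-like nuclei, they were 0.24, 0.19 and 0.31. The cause of these changes was not tested. Leaving out EC-like over BA-like nuclei, the contrast that chose the genes, 153 of 156 alternative values of the 17 single-gene ratios of at least 1 in size kept their sign and 104 stayed at 1 or more in size. Of 390 values of the 42 smaller ratios, 313 kept their sign. These counts, and those that follow, include the 3 alternatives with unnamed nuclei alone. Among capillary-like over arterial- and venous-like ratios, the sign held least in untreated Rflnb (3 of 10), sham-operated Ly6c1 (4 of 10) and C1qtnf9 (5 of 10) and denervated Rflnb (5 of 9), and between libraries in Aqp1 and Aplnr denervated over untreated (3 of 9 each). Ly6c1 denervated over sham-operated ranged from -2.41 to -0.02 and Cd200 from 0.66 to 1.61. Depth limits Apln and the small EC classes, among them the arterial-, venous-, interferon-responding and Col15a1- and Mki67-led ones, where single genes had as few as 0 to 10 UMIs.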
